A study of Mus musculus with 12 samples.

Results

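The genes of cholesterol and fatty acid synthesis were followed in NMuMG spheroids, three-dimensional cultures of a mouse mammary epithelial cell line, after stimulation with GDF11 or TGFB1. A set of 32 genes was chosen by name: 19 for sterol synthesis and transport, 4 for control of the sterol regulatory element-binding proteins (SREBPs) and 9 for fatty acid synthesis and desaturation. Of these, 28 had a probe on the array, and 27 were detected on at least 4 of 12 arrays (detection p under 0.05) and were tested, among 9134 genes tested in all. Hmgcs1, Mvk, Fdft1 and Acaca were not analysed here. Fasn, the fatty acid synthase, was detected on 3 arrays and lay just outside the threshold, and the tested genes nearest to it were Sc5d, detected on 10 arrays, and Tm7sf2, on 11. The other 25 tested genes were detected on every array. The tested genes comprised 16 of the 19 sterol genes, 4 of the 4 SREBP control genes and 7 of the 9 fatty acid genes.

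Spheroids grew from 5000 cells per well on Matrigel for 6 days, and were refed on day 4. The spheroids received serum-free medium, GDF11 at 250 ng/mL or TGFB1 at 50 ng/mL and were collected 4 h later, at 4 biological replicates each, and RNA from 2 wells was pooled for each replicate. The labels give no genetic change in any group. The doses of the ligands differed, and both stimulated groups were compared with the same 4 serum-free arrays. Each sample was hybridized to a 1-colour Illumina beadchip.

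Animal cells make cholesterol from acetyl-CoA through mevalonate, isoprenoids, squalene and lanosterol. When membrane sterol is low, Scap carries the SREBP proteins from the endoplasmic reticulum to the Golgi, where they are cut to release active transcription factors, and Insig1 holds Scap back when sterol is high. Srebf2 encodes the factor best known for driving sterol genes, and Srebf1 the one best known for driving fatty acid genes. The fatty acid branch uses the same acetyl-CoA to build palmitate, which elongases and desaturases then lengthen and unsaturate.

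The promoters of 3 genes are shown because the results turn on the first pair and because the third is a classical SREBP target. Sequences are from RefSeq (GRCm38.p6), run from 250 bases before to 50 bases after the annotated start, and are 300 bases long. Capitals mark matches, on either strand, to the sterol regulatory element TCACNCCAC, the CCAAT box CCAAT, the GC box GGGCGG, the E-box CACGTG and the SMAD-binding box CAGAC. The matches within these 3 windows did not overlap. The Elovl6 window lies at chr3:129532136-129532435 (plus strand), that of Acss2 at chr2:155517793-155518092 (plus strand) and that of Insig1 at chr5:28071162-28071461 (plus strand).
Elovl6: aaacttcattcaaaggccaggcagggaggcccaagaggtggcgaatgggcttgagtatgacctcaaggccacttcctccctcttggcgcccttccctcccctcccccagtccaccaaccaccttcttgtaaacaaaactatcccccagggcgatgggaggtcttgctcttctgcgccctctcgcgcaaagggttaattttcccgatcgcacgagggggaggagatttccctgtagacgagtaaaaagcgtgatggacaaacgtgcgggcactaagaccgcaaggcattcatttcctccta
Acss2: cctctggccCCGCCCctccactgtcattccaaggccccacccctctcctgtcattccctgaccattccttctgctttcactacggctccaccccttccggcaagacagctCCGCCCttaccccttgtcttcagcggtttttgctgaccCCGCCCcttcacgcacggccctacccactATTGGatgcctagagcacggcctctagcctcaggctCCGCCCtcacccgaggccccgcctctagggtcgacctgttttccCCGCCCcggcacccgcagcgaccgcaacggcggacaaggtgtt
Insig1: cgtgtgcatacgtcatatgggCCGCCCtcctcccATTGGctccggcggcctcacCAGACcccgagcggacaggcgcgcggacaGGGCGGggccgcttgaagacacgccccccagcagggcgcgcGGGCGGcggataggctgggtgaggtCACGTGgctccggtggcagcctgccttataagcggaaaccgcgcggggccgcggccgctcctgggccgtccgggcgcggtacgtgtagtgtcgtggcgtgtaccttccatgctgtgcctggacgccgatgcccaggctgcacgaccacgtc
The Elovl6 window held none of the 5 motifs. The Acss2 window held 1 CCAAT box and 5 GC boxes, and the Insig1 window held 1 CCAAT box, 3 GC boxes, 1 E-box and 1 SMAD box.

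A promoter window was found for 25 of the 32 genes. At least 1 CCAAT box lay in the windows of 20 of these 25 genes (80%), against 41.1% of all 27025 genes with a window, and at least 1 GC box in 21 (84%), against 38.2%. The E-box was found in 5 (20%, against 8.09%) and the SMAD box in 12 (48%, against 53.2%). The exact sterol regulatory element was found in 1 gene, Hmgcs1 (4%, against 1.44%). These matches describe the letters of the windows only.

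By their mean raw intensity the 12 arrays formed a dim and a bright set, and many of the lipid genes moved with this split. Serum-free replicates 1, 2 and 4 and GDF11 replicate 1 were dim, at a mean of 149 to 165. Serum-free replicate 3, GDF11 replicates 2, 3 and 4 and all TGFB1 replicates were bright, at 255 to 310. The mean over the 4 serum-free arrays was 189 ± 62.8 (SD, n = 4), that over the GDF11 arrays 251 ± 68.5 and that over the TGFB1 arrays 298 ± 7.53. TGFB1 and serum-free arrays differed in brightness at p = 0.0286, the smallest p that 4 against 4 arrays allow in a two-sided exact permutation test, and GDF11 and serum-free arrays at p = 0.286. No TGFB1 array was dim, so on bright arrays alone the TGFB1 comparison is set against a single serum-free array. With groups in the model, 19 of the 27 genes differed between bright and dim arrays (70.4%), beside 49.2% of all tested genes. On bright arrays 7 were higher and 12 lower, with log2 differences from -0.84 for Hsd17b7 to 1.23 for Sc4mol. Each comparison was therefore also fitted with a term for bright against dim arrays, called the brightness term below. All 12 arrays enter that fit, and the step between the sets is estimated from serum-free and GDF11 arrays only. The part of array brightness in the results without the term was not tested further.

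The epithelial identity of the cultures was checked with markers. Krt8, Krt18, Krt19 and Cdh1 were detected on all 12 arrays and Cldn7 on 8. Cldn3 was detected on none, Esrp1 on 1, and Epcam was not analysed here. Of the adipocyte markers, Fabp4, Plin1 and Cfd were detected on no array, Adipoq and Lep on 1 each, Cidec on 8 and Pparg on 12. None of the fibroblast, endothelial or leukocyte markers reached 4 arrays. All probes of the 7 adipocyte genes summed to a raw intensity of 798 to 1195 on serum-free arrays. On GDF11 arrays the sum was 806 to 1122 and on TGFB1 arrays 1028 to 1059. All probes of the 7 epithelial genes on the array summed to 4975 to 26453 on serum-free arrays. On GDF11 arrays the sum was 6641 to 30430 and on TGFB1 arrays 28559 to 31908. With TGFB1, 3 of the 5 tested epithelial markers were called higher (Krt8, Krt18 and Cdh1) and Krt19 lower. Over all tested genes 15.7% were called higher and 18.7% lower. Of these 4 markers only Krt19 was called with the brightness term, where 15.9% of all tested genes were called and 7.93% lower. The part of these markers in the lipid results was not tested. Such array data cannot tell fewer cells of a type from less RNA per cell.

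Among the 27 genes, the smallest p against serum-free medium with each ligand belonged to a pair of the fatty acid branch. Elovl6, the elongase that takes palmitate to stearate, and Acss2, which makes acetyl-CoA from acetate, were lower with both ligands. After GDF11, 2 of the 27 genes were called at an adjusted p under 0.05, both lower and both of the fatty acid branch, where 9.93% of all tested genes were called in either direction and 5.15% lower. After TGFB1, 14 of 27 were called, 5 higher and 9 lower, where 34.4% of all tested genes were called, 15.7% higher and 18.7% lower. With the brightness term 1 gene was called lower after GDF11, where 10.4% of all tested genes were called and 4.82% lower. After TGFB1 4 genes were called with the term, all lower, where 15.9% of all tested genes were called and 7.93% lower.

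Elovl6 read 6.98, 7.61, 6.89 and 7.49 on the log2 normalized intensity scale in serum-free replicates 1 to 4. It read 6.79, 6.32, 6.16 and 6.27 with GDF11, and 6.04, 6.09, 6.36 and 5.75 with TGFB1. All 8 stimulated arrays lay below all 4 serum-free arrays, and the GDF11 and TGFB1 arrays overlapped. Stimulated arrays lay wholly below the serum-free arrays for 5.35% of all tested genes after GDF11 and 18.3% after TGFB1. The log2 change with GDF11 was -0.86 ± 0.20 (SE), or 1.81-fold lower, with a limma adjusted p of 0.0145. With TGFB1 it was -1.18 ± 0.20, or 2.27-fold lower, with a limma adjusted p of 0.000676. Elovl6 kept both calls with the brightness term, at -0.61 (adjusted p = 0.0348 in limma) for GDF11 and -0.80 (adjusted p = 0.0108) for TGFB1. With groups alone, the GDF11 call held in 4 of the 8 fits that left out 1 array. The term fit called no fatty acid gene with GDF11 without serum-free replicate 3 (all genes 10.4%). Nor did it without GDF11 replicate 1, 3 or 4 (all genes 3.43 to 9.45%). On bright arrays alone, where serum-free medium had only replicate 3, Elovl6 was -0.64 with GDF11 and -0.82 with TGFB1. In the term fit without serum-free replicate 3, the only bright serum-free array, the TGFB1 value was -0.77 with a limma adjusted p of 0.115. The Elovl6 probe was close to the background, at 1.45 to 2.48 times the median raw intensity of undetected probes across the 12 arrays.

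Acss2 read 7.25, 7.21, 6.45 and 6.96 in serum-free replicates 1 to 4 on the log2 scale. With GDF11 it read 6.65, 6.47, 6.03 and 6.14, and with TGFB1 5.68, 5.93, 5.94 and 6.02. The TGFB1 arrays lay below all other arrays, while GDF11 replicates 1 and 2 lay above serum-free replicate 3. The log2 change was -0.64 ± 0.19 (SE) with GDF11 (limma adjusted p = 0.0459) and -1.07 ± 0.19 with TGFB1, or 2.11-fold lower (limma adjusted p = 0.00101). With the brightness term the GDF11 change was -0.36 and was not called (adjusted p = 0.127 in limma), and the TGFB1 change was -0.65 (adjusted p = 0.012). On bright arrays alone, where serum-free medium had only replicate 3, Acss2 with TGFB1 was -0.55. Acss2 with TGFB1 was also called in the term fit without serum-free replicate 3, at -0.81 (limma adjusted p = 0.0394). Its probe gave 1.40 to 2.07 times the median raw intensity of undetected probes. A further Acss2 probe was detected on 1 array and was not tested.

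**Figure D1:**
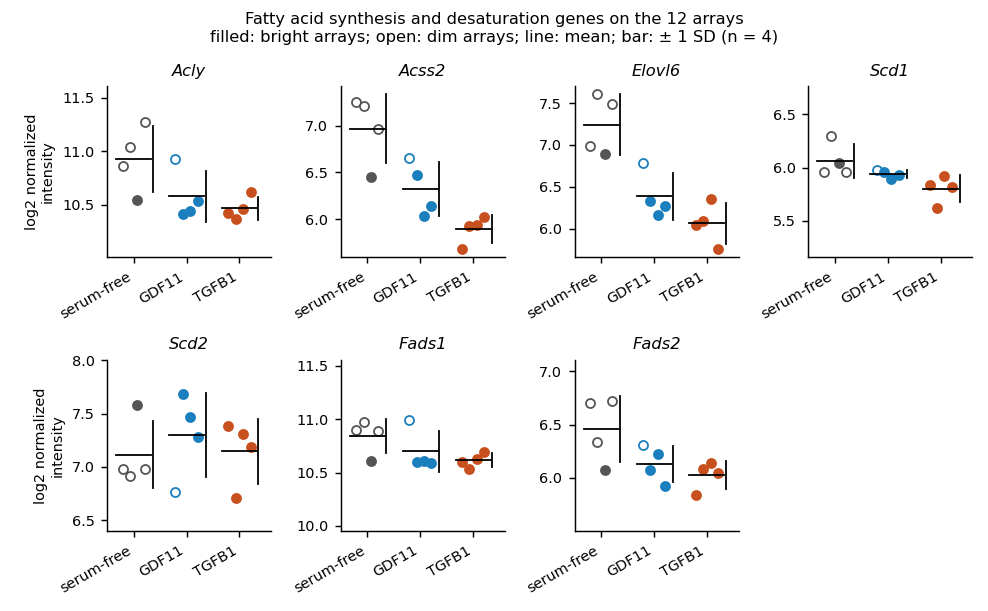
Log2 normalized intensity of the 7 tested fatty acid genes on the 12 arrays by group. Filled points are bright arrays, open points dim arrays, horizontal lines group means and bars 1 SD (n = 4). Elovl6 lies between 6.89 and 7.61 in serum-free medium and between 5.75 and 6.79 with either ligand, and the TGFB1 arrays of Acss2 lie between 5.68 and 6.02.

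The other 5 fatty acid genes moved less. Acly, which splits citrate into cytosolic acetyl-CoA, fell with TGFB1 by 0.47 on the log2 scale (limma adjusted p = 0.0422) and read -0.35 with GDF11, which was not called. Fads2, a desaturase of polyunsaturated fatty acids, fell with TGFB1 by 0.43 (limma adjusted p = 0.0474) and read -0.32 with GDF11, which was not called. Neither kept its call with the brightness term, where Acly with TGFB1 was -0.10 and Fads2 -0.15, and both were among the genes lower on bright arrays.

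The stearoyl-CoA desaturase Scd1 read 5.95 to 6.30 in serum-free medium, 5.90 to 5.98 with GDF11 and 5.62 to 5.92 with TGFB1. Its log2 change with TGFB1 was -0.26 ± 0.12 (SE) with a limma adjusted p of 0.0917, although its TGFB1 and serum-free arrays did not overlap. Its close relative Scd2 read 0.03 with TGFB1 and 0.19 with GDF11, and -0.47 and -0.15 with the brightness term, none of which was called. Fads1, another polyunsaturated fatty acid desaturase, read -0.23 with TGFB1 and -0.14 with GDF11. Neither was called.

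Across the fatty acid branch, 6 of 7 genes had a negative log2 change with each ligand. The median change was -0.32 with GDF11 and -0.43 with TGFB1, beside -0.02 and -0.01 over all tested genes. In the fit with the term the medians were -0.14 and -0.23, and again 6 of 7 were negative with each. Both comparisons share the serum-free arrays, so the pair of signs for a gene is not independent. On bright arrays the branch was lower than on dim arrays for 5 of its 7 genes and higher for 1, Scd2. Of all 9134 tested genes, 2421 were lower on bright arrays and 2073 higher.

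The sterol branch did not move in one direction. With TGFB1, 4 of 16 sterol genes were called higher and 4 lower, where 15.7% of all tested genes were called higher and 18.7% lower, and the median change was -0.12. With GDF11 no sterol gene was called by limma, where 9.93% of all tested genes were called, and the median was 0.10. An unadjusted limma p under 0.05 was held by 5 of the 16 sterol genes, beside 2690 of all 9134 tested genes. None of these 8 TGFB1 calls remained with the brightness term. Dhcr7 and Stard4 were called lower with it, 2 of 16 genes, where 15.9% of all tested genes were called and 7.93% lower. Without TGFB1 replicate 2 or 3 the term fit called no sterol gene with TGFB1 (all genes 14.0 and 13.6%). With log2 mean intensity as a covariate none was called either (all genes 13.8%).

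Early in the pathway, Acat2, which joins acetyl-CoA units to acetoacetyl-CoA in the cytosol, read 6.81, 7.19, 7.56 and 7.23 in serum-free medium. It read 7.11, 7.61, 7.85 and 7.59 with GDF11 and 7.56, 7.75, 7.78 and 7.79 with TGFB1. The lowest TGFB1 array equalled serum-free replicate 3, the bright one, to 2 decimals, and the other serum-free arrays were lower. Acat2 rose by 0.52 ± 0.18 on the log2 scale with TGFB1 (limma adjusted p = 0.0371), and the change was 0.12 with the brightness term.

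Pmvk, the kinase that phosphorylates phosphomevalonate, read 5.13, 5.95, 6.21 and 5.58 in serum-free medium. It read 5.98, 6.29, 6.33 and 6.07 with GDF11 and 6.31, 6.40, 6.62 and 6.13 with TGFB1. The serum-free arrays spread widely and the highest of them overlapped both ligands. Pmvk rose by 0.65 ± 0.20 with TGFB1 (limma adjusted p = 0.0273), and the change was 0.30 with the brightness term. The Pmvk probe gave 1.09 to 1.86 times the median raw intensity of undetected probes on serum-free arrays and 1.81 to 2.25 on TGFB1 arrays.

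Mvd, the decarboxylase that yields isopentenyl diphosphate, read 6.64, 7.07, 6.39 and 6.56 in serum-free medium. It read 6.51, 6.26, 6.51 and 6.10 with GDF11 and 6.21, 5.93, 6.27 and 6.23 with TGFB1. All TGFB1 arrays lay below all serum-free arrays. Mvd fell by 0.51 ± 0.16 on the log2 scale with TGFB1 (limma adjusted p = 0.0258), and the change was -0.29 with the brightness term and was not called.

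Idi1, which interconverts the isopentenyl and dimethylallyl diphosphates, read 6.16, 5.68, 6.68 and 6.29 in serum-free medium. It read 5.83, 7.23, 7.05 and 7.13 with GDF11 and 7.09, 6.94, 6.99 and 6.99 with TGFB1. The 4 dim arrays gave the lowest 4 readings of all. Idi1 rose by 0.80 ± 0.28 with TGFB1 (limma adjusted p = 0.0397). The change was 0.07 with the brightness term, and in the term fit without serum-free replicate 3 it was -0.35. The Idi1 probe gave 1.17 to 2.25 times the median raw intensity of undetected probes on serum-free arrays and 2.63 to 2.92 on TGFB1 arrays.

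Fdps, the synthase of farnesyl diphosphate, read 10.74, 10.76, 10.47 and 11.06 in serum-free medium. It read 11.04, 10.64, 10.49 and 10.58 with GDF11 and 10.29, 10.25, 10.42 and 10.29 with TGFB1. All TGFB1 arrays lay below the other 8. Fdps fell by 0.44 ± 0.15 on the log2 scale with TGFB1 (limma adjusted p = 0.0356), and the change was -0.12 with the brightness term.

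Sqle, the squalene epoxidase and a rate-limiting step, read 9.95, 9.79, 9.31 and 9.92 in serum-free medium. It read 9.64, 9.42, 9.30 and 9.30 with GDF11 and 9.09, 8.94, 9.11 and 9.24 with TGFB1. All TGFB1 arrays lay below the other 8, though the gap to the lowest of those was small. Sqle fell by 0.65 ± 0.15 on the log2 scale with TGFB1 (limma adjusted p = 0.00655), and its call held in all 8 fits that left out 1 array. Its change was -0.32 with the brightness term (adjusted p = 0.107 in limma). The other detected Sqle probe gave -0.76 with TGFB1 (limma adjusted p = 0.023, over all probes).

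Lss, which cyclises oxidosqualene to lanosterol, read 7.19, 7.23, 6.88 and 7.49 in serum-free medium. It read 7.38, 6.82, 6.83 and 6.70 with GDF11 and 6.61, 6.70, 6.71 and 6.60 with TGFB1. The TGFB1 arrays lay below all serum-free arrays. Lss fell by 0.54 ± 0.16 on the log2 scale with TGFB1 (limma adjusted p = 0.021), and the change was -0.16 with the brightness term.

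Sc4mol, the sterol-C4-methyl oxidase now named Msmo1, read 6.78, 7.68, 8.37 and 6.89 in serum-free medium. It read 7.41, 8.58, 8.45 and 8.78 with GDF11 and 8.71, 8.48, 8.70 and 8.55 with TGFB1. The bright serum-free array lay just below the lowest TGFB1 array and the dim arrays lay far below. Sc4mol rose by 1.18 ± 0.34 with TGFB1, or 2.27-fold (limma adjusted p = 0.0179). The change was 0.26 with the brightness term (adjusted p = 0.496 in limma), and the bright arrays exceeded the dim ones by 1.23.

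**Figure D2:**
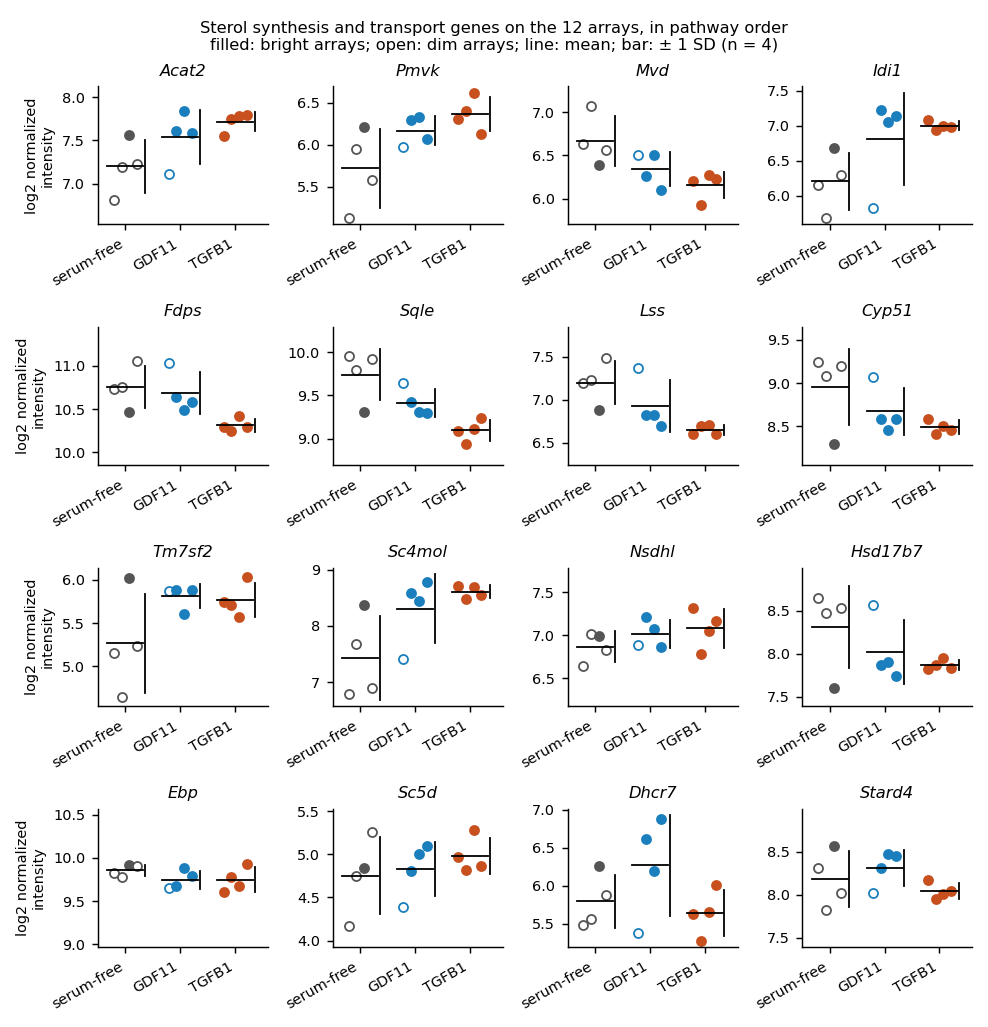
Log2 normalized intensity of the 16 tested sterol genes on the 12 arrays by group, in pathway order. Filled points are bright arrays, open points dim arrays, horizontal lines group means and bars 1 SD (n = 4). The dim arrays of Idi1 lie between 5.68 and 6.29 and its bright arrays between 6.68 and 7.23.

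Dhcr7, the reductase of the last step to cholesterol, read 5.48, 5.56, 6.26 and 5.87 in serum-free medium. It read 5.37, 6.62, 6.19 and 6.89 with GDF11 and 5.63, 5.28, 5.65 and 6.02 with TGFB1. The bright TGFB1 arrays were lower than the bright serum-free and GDF11 arrays, and within the range of the dim serum-free arrays except for the lowest and the highest. Without the term the TGFB1 arrays differed by -0.15 from the serum-free arrays and by -0.63 ± 0.29 from the GDF11 arrays, neither called. With the term it was -0.83 (limma adjusted p = 0.0304) and -0.85 (limma adjusted p = 0.0284). On bright arrays alone TGFB1 against GDF11 gave -0.93 (limma adjusted p = 0.00598). The Dhcr7 probe gave 1.12 to 2.32 times the median raw intensity of undetected probes.

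Stard4, which carries sterol between membranes, read 8.31, 7.83, 8.56 and 8.02 in serum-free medium. It read 8.02, 8.31, 8.47 and 8.45 with GDF11 and 8.17, 7.94, 8.00 and 8.05 with TGFB1. All TGFB1 arrays lay below the 4 bright arrays of the other groups, and overlapped the dim arrays. Without the term TGFB1 against serum-free medium gave -0.14, which was not called, and with the term -0.48 (limma adjusted p = 0.0346). On bright arrays alone TGFB1 against GDF11 gave -0.37 (limma adjusted p = 0.0305).

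The remaining sterol genes were not called in any comparison, with or without the brightness term. With TGFB1 against serum-free medium, Cyp51, the lanosterol demethylase, read -0.46 and Hsd17b7, a sterol ketoreductase, -0.44, and both read near 0 or above with the term, at 0.07 and 0.19. Tm7sf2, a sterol-C14 reductase, read 0.50 with TGFB1 and 0.55 with GDF11, and its serum-free arrays were spread over an SD of 0.57. Nsdhl, a decarboxylating sterol dehydrogenase, read 0.21 with TGFB1 on the probe used, while its other 3 detected probes gave -0.36 to 0.16. Ebp, a sterol isomerase, read -0.11 with TGFB1 and with GDF11. Sc5d, a sterol desaturase, read 0.23 with TGFB1 and 0.07 with GDF11 on a probe near background.

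Below the calls, the GDF11 changes of the sterol genes described above were 0.87 for Sc4mol, 0.61 for Idi1, 0.48 for Dhcr7, 0.45 for Pmvk, 0.34 for Acat2, 0.14 for Nsdhl and 0.13 for Stard4. Those below 0 were -0.33 for Sqle, -0.32 for Mvd, -0.29 for Hsd17b7, -0.28 for Cyp51, -0.27 for Lss and -0.07 for Fdps. The median GDF11 change over the 16 sterol genes was 0.07 with the brightness term.

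The 4 SREBP control genes split. Srebf2, the gene of SREBP2, read 7.78, 8.25, 7.53 and 8.00 in serum-free medium, 8.03, 7.34, 7.43 and 7.42 with GDF11 and 7.32, 7.39, 7.22 and 7.34 with TGFB1. Its TGFB1 arrays lay below all serum-free arrays. It fell by 0.57 ± 0.18 on the log2 scale with TGFB1 (limma adjusted p = 0.0254) and read -0.33 with GDF11, which was not called. Both shrank toward 0 with the brightness term, to -0.15 and -0.05, and Srebf2 was lower on bright arrays by 0.56.

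Scap, the SREBP escort protein, read 5.59, 5.66, 6.26 and 5.60 in serum-free medium, 5.75, 6.25, 6.34 and 6.33 with GDF11 and 6.22, 6.31, 6.56 and 6.51 with TGFB1. Every dim array lay below every bright array, and the bright serum-free array lay within the TGFB1 range. It rose by 0.62 ± 0.18 with TGFB1 (limma adjusted p = 0.0186) and read 0.39 with GDF11, which was not called. The changes were 0.17 and 0.09 with the brightness term, and neither was called.

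Srebf1, the gene of SREBP1, read 5.95, 6.25, 5.46 and 5.38 in serum-free medium, 6.41, 5.37, 5.92 and 5.61 with GDF11 and 5.30, 5.55, 5.48 and 5.49 with TGFB1. The 3 groups overlapped. The changes were 0.07 ± 0.23 with GDF11 and -0.30 ± 0.23 with TGFB1, and 0.37 and 0.14 with the brightness term, none of them called. A further Srebf1 probe was detected on no array.

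Insig1, the retention protein for Scap, read 7.84, 7.64, 7.56 and 7.79 in serum-free medium, 7.97, 8.18, 7.62 and 8.24 with GDF11 and 7.85, 7.75, 8.02 and 8.23 with TGFB1. The groups overlapped, with the 2 highest readings among GDF11 and TGFB1 arrays. The changes were 0.30 ± 0.15 with GDF11 and 0.25 ± 0.15 with TGFB1, neither called, with 95% intervals of -0.04 to 0.63 and -0.08 to 0.59. Its other 2 detected probes gave 0.15 and -0.14 with GDF11.

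**Figure D3:**
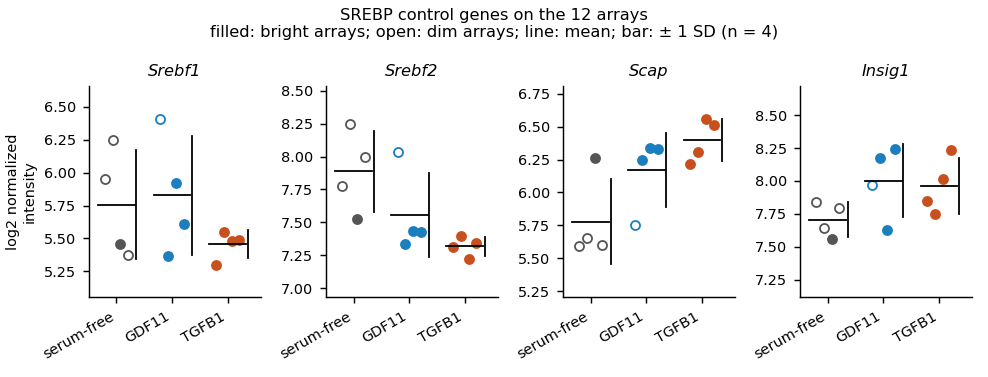
Log2 normalized intensity of the 4 SREBP control genes on the 12 arrays by group. Filled points are bright arrays, open points dim arrays, horizontal lines group means and bars 1 SD (n = 4). The dim arrays of Scap lie between 5.59 and 5.75 and its bright arrays between 6.22 and 6.56.

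TGFB1 was also set against GDF11 directly, at doses that differ. No lipid gene was called by limma, where 0.832% of all tested genes were called. An unadjusted limma p under 0.05 was held by 3 of the 27 lipid genes, beside 808 of all 9134 tested genes. These 3 were Fdps at -0.37, Acss2 at -0.43 and Dhcr7 at -0.63. Dhcr7 was called with the term, as given above, where 2.51% of all tested genes were called and 1.23% lower. Without GDF11 replicate 2 or 4, or TGFB1 replicate 1, 2 or 3, the term fit called no lipid gene (all genes 1.20 to 2.10%). Elovl6 read -0.32 with a 95% interval of -0.74 to 0.10, so neither equal nor unequal response was shown. In this comparison all 7 fatty acid genes had a change below 0, with a median of -0.14 beside -0.01 over all tested genes, and with the brightness term 5 of 7 did. Acss2, Fdps and Sqle were the genes whose TGFB1 arrays all lay below the GDF11 arrays, 3 of 27, where this held for 5.52% of all tested genes.

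In the TGFB1 comparison the groups of 10 of the 27 genes did not overlap, 2 higher and 8 lower, where this held for 33.5% of all tested genes, 15.2% higher and 18.3% lower. The median absolute change of the 27 genes with TGFB1 was 0.46 beside 0.34 over all tested genes, and 0.17 beside 0.20 with the brightness term. For GDF11 these were 0.32 beside 0.25, and 0.12 beside 0.17 with the term.

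**Figure D4:**
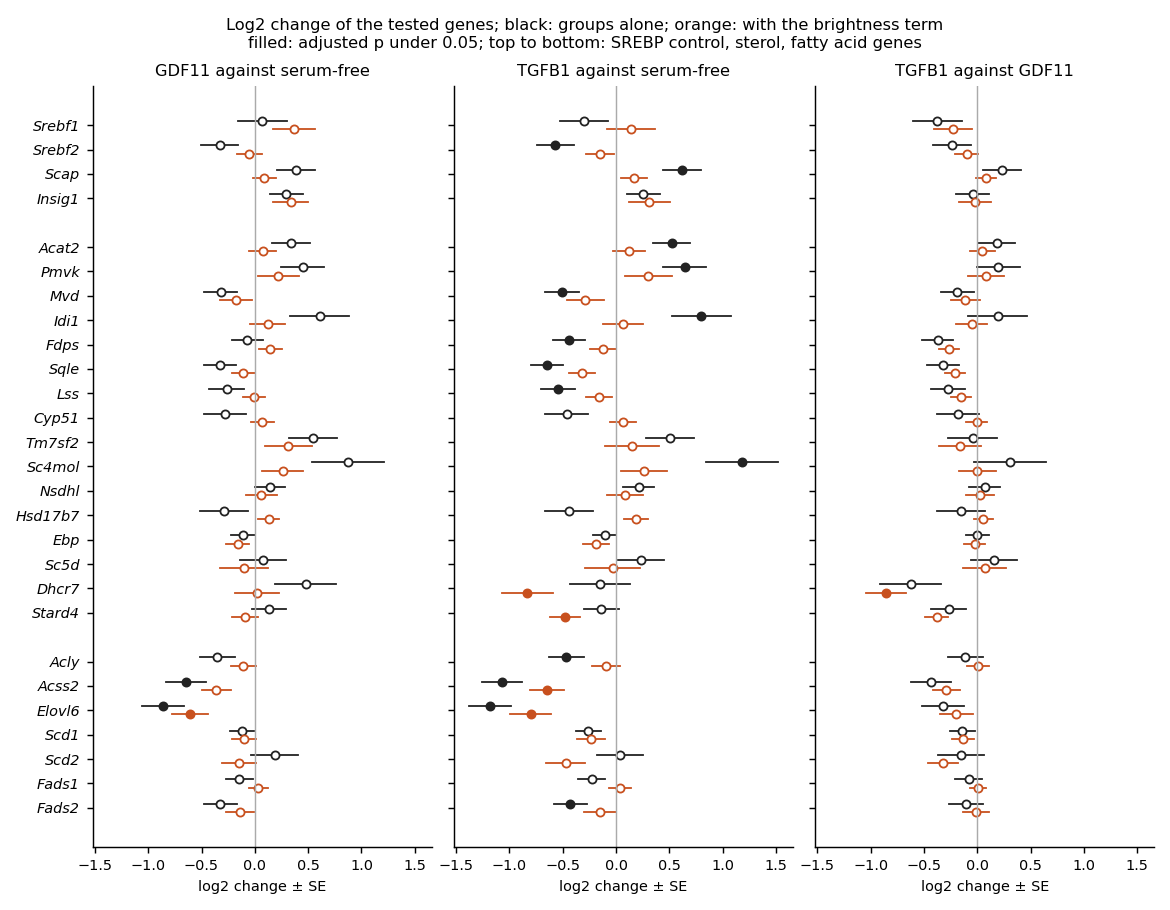
Log2 change with its SE for each of the 27 tested genes in the 3 comparisons, from the model with groups alone (black) and with the brightness term (orange). Filled points have an adjusted p under 0.05 in limma. In TGFB1 against serum-free medium, 14 black points are filled and 4 orange points, those of Dhcr7, Stard4, Acss2 and Elovl6.

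Other genes of sterol handling were counted from a list of 20, of which 12 were tested. With GDF11, 0 were called higher and 1 lower by limma, where 9.93% of all tested genes were called. With TGFB1 1 was called higher and 3 lower, where 34.4% of all tested genes were called. Nr1h3, the liver X receptor alpha that senses oxysterols, read 6.88 to 7.25 in serum-free medium, 6.42 to 6.66 with GDF11 and 5.83 to 6.33 with TGFB1. The 3 groups did not overlap. It fell by 0.61 ± 0.13 on the log2 scale with GDF11 (limma adjusted p = 0.0123) and by 1.02 ± 0.13 with TGFB1 (limma adjusted p = 0.00011), and both calls held with the brightness term, at -0.56 and -0.95. With TGFB1, Stard3, a sterol carrier of late endosomes, rose by 1.15, while Erlin1 and Erlin2, regulators of SREBP and Insig turnover, fell by 0.77 and 0.39 on the log2 scale. None of these 3 was called with the brightness term. Soat1, the cholesterol esterifying enzyme, was called lower with GDF11 with the term alone, at -0.45 (adjusted p = 0.0409 in limma).

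Other fatty acid genes were counted from a list of 20, of which 17 were tested. With GDF11, 1 was called higher and 2 lower (all tested genes 9.93%), and with TGFB1 4 higher and 5 lower (all tested genes 34.4%). The acyl-CoA synthetases, which activate fatty acids, moved apart from one another. Acsl3 read 8.46 to 8.80 in serum-free medium, 8.95 to 9.77 with GDF11 and 9.67 to 9.93 with TGFB1, and rose by 0.93 ± 0.17 (limma adjusted p = 0.00353) and 1.18 ± 0.17 (limma adjusted p = 0.000215). Acsl1 fell by 0.70 with GDF11 and by 0.81 with TGFB1 on the log2 scale, and Acsl4 by 0.48 and 0.72. Acsl1 read 4.25 to 5.04 with GDF11 and 4.56 to 4.68 with TGFB1. The lowest detected level of an array lay between 4.43 and 4.76, so these Acsl1 readings were near the background. Acsl5 fell by 0.80 with TGFB1. All of these acyl-CoA synthetase calls held with the brightness term, where Acsl3 rose by 0.67 with GDF11 and 0.79 with TGFB1. Of the others called with TGFB1, Fads3, a desaturase relative (0.80), and Hsd17b12, a ketoacyl reductase of chain elongation (1.18), rose and kept their calls with the term. Me1, malic enzyme (0.92), rose, and Elovl5, an elongase of polyunsaturated fatty acids (-0.82), and Tecr, an enoyl reductase of chain elongation (-0.35), fell, without keeping their calls.

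Fatty acid oxidation genes gave 6 tested of 10. With GDF11, 1 was called lower (all tested genes 9.93%), and with TGFB1 2 were called higher and 3 lower (all tested genes 34.4%). Acadm, the medium-chain acyl-CoA dehydrogenase, fell by 0.71 on the log2 scale with GDF11 (limma adjusted p = 0.0168) and by 1.20 with TGFB1 (limma adjusted p = 0.000162), and was called with the brightness term in both, at -0.46 and -0.83. Cpt2 and Slc25a20, of the carnitine shuttle, fell with TGFB1, at -0.76 and -0.56, and the dehydrogenases Acadvl and Acadl rose, at 0.55 and 0.64, and none of these 4 was called with the term. The adipocyte list moved beside these results as follows. Pparg, a nuclear receptor that also acts in lipid storage, fell by 0.56 on the log2 scale with GDF11 (limma adjusted p = 0.0168) and by 0.85 with TGFB1 (limma adjusted p = 0.0004). Cidec, a lipid droplet protein, was detected on no serum-free array and on all 8 stimulated arrays, so that it passed the filter through the stimulated groups alone. Its GDF11 level was at least 1.33-fold higher, taken against the lowest detected signal of the serum-free arrays. For this reason no limma call of Cidec against serum-free medium is given. None of the genes on these 3 further lipid lists was called in TGFB1 against GDF11 by limma.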

How the data were processed

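RNA of 12 spheroid samples was measured on 1-colour Illumina beadchips, and the authors deposited a non-normalized table and their processed values. The bead signal is an intensity with no background subtracted and the detection value a p-value, per the file headers. Their processed values look like log2 values, as judged from the deposited numbers. Lumi is named in the submitters' processing notes, with no settings, and no source used here states the log base. The deposited number of beads per probe was used as a check.

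Intensities were background-corrected with neqc (limma 3.58.1 in R 4.3.3, offset 16), quantile normalized and taken to log2. The filter kept 12680 of 25697 probes (detection p under 0.05 on 4 or more of the 12 arrays), and the probe of highest mean stood for its gene. One mean per group was fitted to 12 arrays with lmFit and eBayes, and p-values were adjusted by Benjamini-Hochberg over 9134 genes in each comparison. Changes of dim genes are drawn toward 0 by the offset. An added term separated bright from dim arrays, split where mean raw intensity had its widest gap. The fit with groups alone was tested on simulated data with the spread of the TGFB1 arrays and no brightness split. That test does not cover arrays that differ in brightness. A probe was read from 39.6 beads on average on serum-free arrays, 39.3 on GDF11 arrays and 36.3 on TGFB1 arrays, and 41.2 to 49.6% of probes were detected. Bead number differed between TGFB1 and serum-free arrays at p = 0.0286 in a two-sided exact permutation test. It gave the same p for TGFB1 and GDF11 arrays, the smallest that 4 against 4 arrays allow. The brightness term does not cover bead number, and the part of bead number in the results was not tested. The number of beads and arrays limits the precision.

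Genes and lists were chosen with earlier results of these data known. Values on each array are given for the SREBP control genes, for genes whose call held with the term in any comparison, for those called with it alone, and for up to 8 further genes by smallest p in TGFB1 against serum-free medium. The sterol handling list leaves out 2 genes that are not reported here. Probe sequences and a genome were not used here. Symbols were matched to RefSeq (GRCm38.p6). Alternatives changed the background, offset, scaling, source of values, filter, probe choice, arrays, brightness, replicate block, left-out array and prior. Replicate numbers did not pair the arrays: only 4 of 12 correlated best with an array of the same number.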

Additional observations from a re-analysis of the deposited data

Results flagged for a closer look

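Of 81 groups of 4 arrays looked at, 8 held an array whose gap to the nearest of the others, as a share of the group's range, was above Dixon's critical value. Chance alone flags about 1 in 20 groups, and the genes share arrays. All values are on the log2 normalized scale. In GDF11 replicate 1, a dim array, Fads1 read 10.99 where the other GDF11 arrays read 10.59 to 10.61, and Srebf2 read 8.03 against 7.34 to 7.43. On the same array Idi1 read 5.83 against 7.05 to 7.23 and Scap read 5.75 against 6.25 to 6.34. In serum-free replicate 3, the bright array of its group, Hsd17b7 read 7.60 against 8.47 to 8.64, Scap read 6.26 against 5.59 to 5.66 and Scd2 read 7.58 against 6.91 to 6.98. Tm7sf2 in GDF11 replicate 3 read 5.61 against 5.87 to 5.89. Each of the first 7 lies on the array whose brightness set differs from that of the rest of its group, and the part of brightness in these readings was not tested.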

How the results depend on the processing

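Of the members called with TGFB1 in the fit with groups alone, Elovl6, Acss2 and Sqle kept their calls in all 8 fits leaving out 1 array. Shares in brackets are those of all genes tested. The number of members called with GDF11 was 2 in the reported fit (9.93%). It was 0 with median scaling (2.08%) and in the fit of only the 2 groups compared (3.85%). It was also 0 with the replicate block and brightness term together (7.12%). It was 1 without the detection filter (4.21%), with each probe tested on its own (8.34% of probes) and with the brightness term (10.4%). It was also 1 with log2 mean intensity as a covariate (10.1%) and with a trend in the prior (10.3%). The number called with TGFB1 was 14 in the reported fit (34.4%), 7 without the detection filter (13.8%) and 4 with the brightness term (15.9%). It was 2 with log2 mean intensity as a covariate (13.8%) and 3 with the replicate block and brightness term (11.5%). TGFB1 against GDF11 gave 0 members called in the reported fit (0.832%) and 1 with the brightness term (2.51%). It gave 2 with the replicate block and brightness term (2.20%). On bright arrays alone, or on dim arrays alone, 1 group keeps only 1 array, so no counts are given for those fits.

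Leaving out 1 array gave 0 to 11 members called for GDF11. It gave 11 without serum-free replicate 3 (all genes 31.0%) and 10 without GDF11 replicate 1 (all genes 36.9%). These are the arrays whose brightness differs from the rest of their group. It gave 0 without serum-free replicates 2 or 4 or GDF11 replicates 3 or 4 (all genes 4.86 to 5.61%). It gave 1 without serum-free replicate 1 (all genes 6.25%) or GDF11 replicate 2 (all genes 5.66%). For TGFB1 it gave 17 without serum-free replicate 3 (all genes 48.8%) and 4 to 7 without any other array (all genes 22.4 to 24.3%). For TGFB1 against GDF11 it gave 0 (all genes 0.208 to 1.19%). With the brightness term, an alternative chosen after seeing the data, leaving out 1 array gave 0 to 1, 2 to 4 and 0 to 1. The shares of all genes were 3.43 to 11.7%, 13.2 to 17.3% and 1.20 to 2.75%. The cause of these differences was not tested.

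Median scaling moved the median of all genes by 0.39 with GDF11 and 0.69 with TGFB1. Against TGFB1's shift the 9 lower members stayed below it (-0.94 to -0.20) and the 5 higher above it (0.66 to 1.48), while 15 of the 17 members below 0 in the reported fit read above 0. Of these 17, 14 stayed below the shift. The 10 of the 15 called in either fit were Acly 0.47, Cyp51 0.52, Fads1 0.70, Fads2 0.47, Fdps 0.49, Hsd17b7 0.54, Lss 0.42, Mvd 0.39, Sqle 0.32 and Srebf2 0.41. All 11 members called with TGFB1 under median scaling were higher, where 47.0% of all tested genes were called. Idi1 turned to -0.020 with the replicate block and brightness term, and to -0.35 with the term and without serum-free replicate 3. Replicate numbers, which did not pair the arrays (3 of 12 pairs over 0.1), gave 2, 13 and 0 members with the replicate block alone. The shares of all genes were 9.50%, 36.1% and 0.624%. Elovl6 with TGFB1 was -0.62 with the replicate block and brightness term (limma adjusted p = 0.0996). Dim probes, near the background, limit the smaller changes.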
